A study of Homo sapiens with 5 samples.

Results

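The genes described here make up the core machinery of RNA interference and microRNA function. They were DROSHA, DGCR8, XPO5, DICER1, TARBP2, the argonautes AGO1, AGO2, AGO3 and AGO4, and TNRC6A. A probe belonged to the set when its symbol in the array's platform annotation was one of these names, which gave 18 of 48107 probes, and 10 of the 20043 genes on the array. Every culture in the series had been transfected with a small interfering RNA (siRNA), a molecule that acts through this same machinery.

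In the microRNA pathway, the microprocessor of DROSHA and DGCR8 cuts hairpins out of primary transcripts in the nucleus, and exportin 5, the product of XPO5, carries them to the cytoplasm. There DICER1, helped by its partner TARBP2, cuts the hairpin to a short duplex, and a strand of that duplex is loaded into an argonaute protein. The loaded argonaute binds target transcripts, and GW182 proteins such as TNRC6A link it to the enzymes that shorten poly(A) tails and remove caps. A synthetic siRNA duplex enters at the argonaute step and does not need the microprocessor, and AGO2 is the human argonaute best known for cutting a fully matched target.

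RNA came from BXPC3 and Miapaca, which are established human cell lines of pancreatic ductal adenocarcinoma. BXPC3 cells received an siRNA directed at the open reading frame (ORF) of LYNX1, where LYNX1 is a gene for a membrane-anchored protein of the Ly6 family, or a non-targeting control siRNA. Miapaca cells received the same ORF siRNA, an siRNA against the 3′ untranslated region (3UTR) of LYNX1, or the control siRNA. Each of the 5 groups had 1 Illumina bead array, so no group had a replicate. The BXPC3 groups were treated at 200 nM with 14 µl of Xtreme gene9, and the Miapaca groups at 60 pM, as the labels state it, with 4 µl of lipofectamine RNAiMAX. In all groups siRNA followed seeding by 24 h, and exposure lasted 72 h before RNA extraction. Cell line, siRNA dose and transfection reagent therefore cannot be told apart, and all control cells had also been transfected with a duplex RNA.

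Mean bead intensity was 361 on the BXPC3 ORF array and 366 on the BXPC3 control array. It was 355 on the Miapaca ORF array, 343 on the Miapaca 3UTR array and 463 on the Miapaca control array, which was thus 1.30 and 1.35 times as bright as the ORF and 3UTR arrays. Between 16622 and 18205 probes per array had a detection p under 0.01, the limit for calling a probe detected. Both LYNX1 probes were detected on 0 of 5 arrays, with a lowest detection p of 0.0228, so the knockdown could not be checked. Of 8 epithelial and pancreatic cancer cell markers with a probe, 8 and 7 were detected on the BXPC3 ORF and control arrays, against 4, 5 and 4 on the Miapaca ORF, 3UTR and control arrays. EPCAM, CDH1 and KRT7 were detected on both BXPC3 arrays and on no Miapaca array, although both lines are labelled as pancreatic adenocarcinoma. KRT8, KRT18, KRT19 and MUC1 were detected on all 5 arrays. After normalization KRT8, KRT18 and MUC1 were higher on every Miapaca array than on either BXPC3 array, and KRT19 was lower. Of the mesenchymal markers, VIM was detected on all 5 arrays and was higher in Miapaca. CDH2 was detected on the BXPC3 arrays alone, and ZEB1 and FN1 on 0 arrays. Of the endothelial markers PECAM1, VWF and KDR were detected on 0 of 5 arrays and CDH5 on 3, and of the blood cell markers PTPRC, CD3E and HBB on 0 and CD68 and CD14 on all 5. Of the fibroblast markers COL1A1, PDGFRB, DCN and LUM were detected on 0 arrays, COL3A1 on 1 and COL1A2 on 4, namely all 3 Miapaca arrays and the BXPC3 control array.

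Levels below are normalized log2 intensities, differences are log2 differences between arrays after quantile normalization, and a difference of 1 means 2-fold. Of the 18 probes, 12 were detected on all 5 arrays, 2 on some and 4 on none. Of the 10 genes, 9 had a probe detected on all 5 arrays, and AGO4 was the exception. Probe levels differ with probe chemistry as well as with transcript amount, so levels are compared between arrays and never between genes. In these whole-culture RNA samples, a smaller share of cells with a transcript and less of that transcript per cell cannot be told apart.

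**Figure D1:**
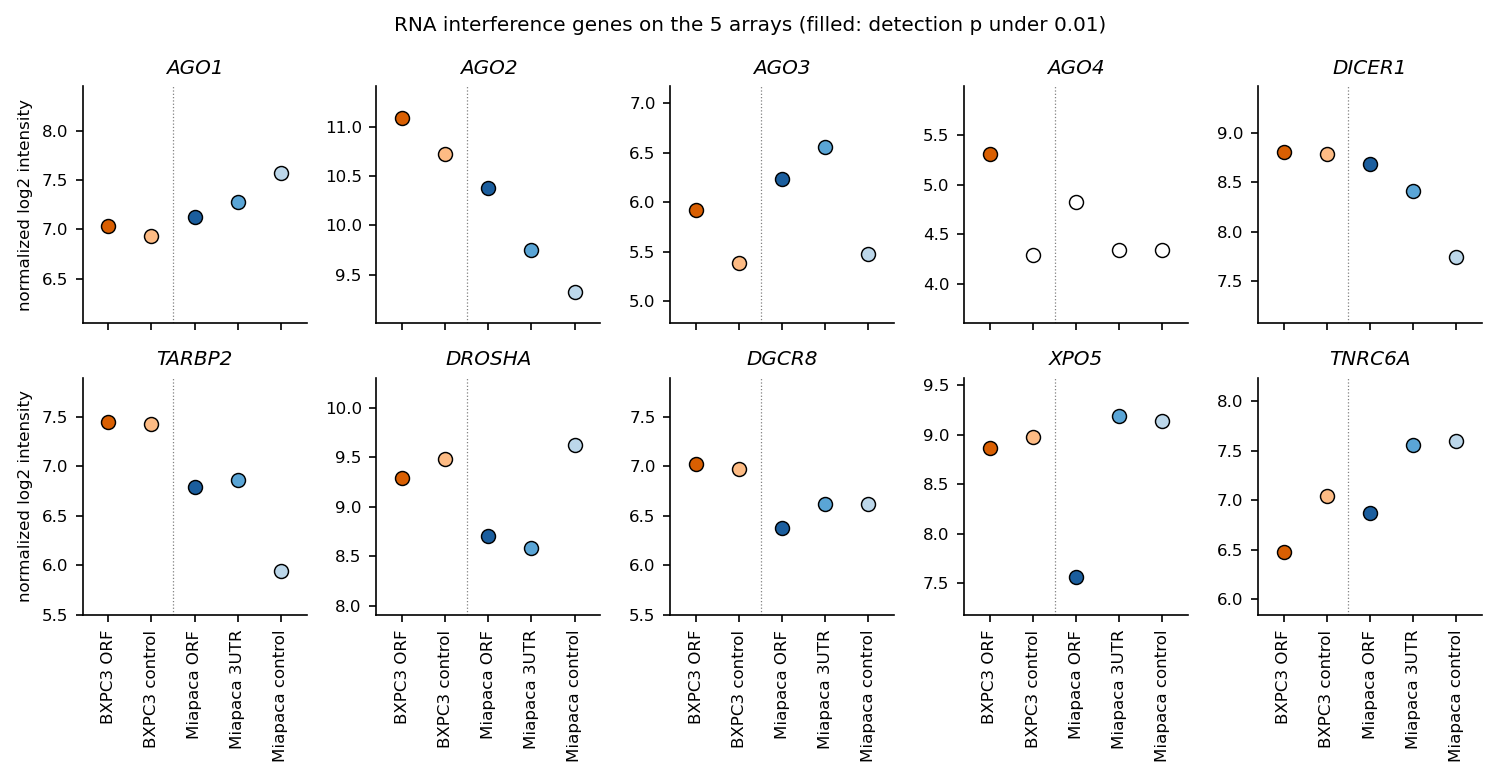
Normalized log2 intensity (vertical axis, 1 panel per gene, all of equal span and each centred on its own gene) of the 10 RNA interference genes on the 5 arrays, BXPC3 in orange and Miapaca in blue. Each point is 1 array, filled where the detection p was under 0.01. XPO5 was low on the Miapaca ORF array alone (7.56), DROSHA was lower on both Miapaca siRNA arrays (8.70 and 8.59) than on the Miapaca control array (9.63), and AGO4 was detected on the BXPC3 ORF array alone.

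The microprocessor genes came first in the pathway. DROSHA, the nuclease (chr5:31400494-31532093, GRCh38.p14, RefSeq, as for all coordinates here), had a level of 9.29 on the BXPC3 ORF array and 9.48 on the BXPC3 control array. In Miapaca it had 8.70 on the ORF array and 8.59 on the 3UTR array, against 9.63 on the control array. Both Miapaca siRNA arrays thus lay below the other 3 arrays, which spanned a narrow range. In bead intensity before normalization the same probe read 438 and 396 on the Miapaca ORF and 3UTR arrays, against 1186 on the Miapaca control array. In Miapaca the log2 difference from control was −0.93 for the ORF siRNA and −1.04 for the 3UTR siRNA. In BXPC3 it was −0.19 for the ORF siRNA. The Miapaca values share a control array and are not independent of each other. A second DROSHA probe was detected on 0 of 5 arrays.

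DGCR8, the double-stranded RNA binding partner of DROSHA (chr22:20080241-20111872), stood at 7.02 and 6.97 on the BXPC3 ORF and control arrays. Its Miapaca levels were 6.37 on the ORF array and 6.62 on the 3UTR array, against 6.62 on the control array. DGCR8 was thus higher on both BXPC3 arrays than on any Miapaca array, and its lowest level was with the ORF siRNA in Miapaca. The Miapaca differences from control were −0.25 for the ORF siRNA and −0.00 for the 3UTR siRNA, and the BXPC3 difference was 0.05.

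XPO5, which exports the precursor hairpins (chr6:43522334-43576038), gave the largest difference among these 10 genes over the 3 comparisons of siRNA with control. Its level was 8.87 on the BXPC3 ORF array and 8.97 on the BXPC3 control array. In Miapaca it was 7.56 on the ORF array and 9.19 on the 3UTR array, against 9.14 on the control array. The Miapaca ORF array was the only low one, and the other 4 arrays lay close together. The bead intensity was 236 there, against 569 on the Miapaca 3UTR array and 864 on the Miapaca control array. For the Miapaca ORF array the difference was −1.57, or 2.98-fold lower, and 1.18% of all genes compared there lay at or below it. The 3UTR siRNA in Miapaca gave 0.05 and the ORF siRNA in BXPC3 gave −0.10, so the low value was seen with 1 siRNA in 1 line. With 1 array behind it, it has no error estimate. Across 8 processing settings, the reported one included, it ranged between −2.14 and −1.19, at least 2-fold in 8 of 8.

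DICER1, which cuts the hairpin in the cytoplasm (chr14:95086228-95158010), had levels of 8.80 and 8.79 on the BXPC3 ORF and control arrays. In Miapaca its levels were 8.69 on the ORF array and 8.41 on the 3UTR array, against 7.74 on the control array. The Miapaca control array was the low one among the 5. The differences in Miapaca were 0.94 for the ORF siRNA and 0.66 for the 3UTR siRNA, beside 0.01 in BXPC3. Under median scaling the Miapaca differences were 0.43 and 0.07. The bead intensity was 433 and 355 on the Miapaca ORF and 3UTR arrays, against 378 on the Miapaca control array. A different DICER1 probe, detected on all 5 arrays at lower intensity, did not show the Miapaca differences. In Miapaca it gave −0.30 for the ORF siRNA and 0.08 for the 3UTR siRNA, and in BXPC3 it gave 0.29. The probes thus disagreed in sign for the ORF siRNA in Miapaca, and 2 further DICER1 probes were detected on 0 of 5 arrays.

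TARBP2, the RNA-binding partner of DICER1 (chr12:53500923-53506431), had levels of 7.45 and 7.43 on the BXPC3 ORF and control arrays. Its Miapaca levels were 6.79 on the ORF array and 6.86 on the 3UTR array, against 5.95 on the control array. As for DICER1, the Miapaca control array gave the lowest of the 5 levels. The differences in Miapaca were 0.85 for the ORF siRNA and 0.91 for the 3UTR siRNA, beside 0.02 in BXPC3. In bead intensity the gap was small, at 168 and 170 on the Miapaca ORF and 3UTR arrays, against 161 on the Miapaca control array. The other TARBP2 probe, also detected on all 5 arrays, gave 0.03 for the ORF siRNA and −0.23 for the 3UTR siRNA in Miapaca and −0.48 in BXPC3. It did not repeat the Miapaca differences of the brighter probe.

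Among the argonautes, AGO1, AGO3 and AGO4 are neighbours on chromosome 1, at chr1:35869761-35930532, chr1:35930718-36072500 and chr1:35807636-35857890. AGO2 lies apart from them on chromosome 8. In Miapaca AGO1 stood below control and AGO3 above it with both siRNAs, and AGO4 has no value there. In BXPC3 all 3 neighbours stood above control with the ORF siRNA, AGO1 by 0.11 only. Probe sequences were not used here, so specificity between these related transcripts, and whether a probe lies in a coding exon or a UTR, was not checked.

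AGO2, the argonaute that cuts matched targets, had levels of 11.09 on the BXPC3 ORF array and 10.72 on the BXPC3 control array. In Miapaca its levels were 10.38 on the ORF array and 9.76 on the 3UTR array, against 9.33 on the control array. Both BXPC3 arrays were above all 3 Miapaca arrays, and in each line the siRNA arrays were above their control. With the ORF siRNA in Miapaca the difference was 1.05, or 2.07-fold higher, and 4.12% of genes lay at or above it. The 3UTR siRNA in Miapaca gave 0.42 and the ORF siRNA in BXPC3 gave 0.37. The 3UTR value turned to −0.12 under median scaling, and the bead intensity on that array, 820, was below the 980 of the Miapaca control array.

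AGO3 had levels of 5.92 on the BXPC3 ORF array and 5.39 on the BXPC3 control array. In Miapaca it had 6.23 on the ORF array and 6.56 on the 3UTR array, against 5.48 on the control array. All 3 LYNX1 siRNA arrays were above both control arrays. The differences in Miapaca were 0.75 for the ORF siRNA and 1.08, or 2.11-fold higher, for the 3UTR siRNA. In BXPC3 the difference was 0.53. Another AGO3 probe detected on all 5 arrays gave smaller differences, of 0.31 and 0.38 in Miapaca and 0.09 in BXPC3. Under median scaling that probe gave −0.08 and −0.05 in Miapaca and −0.04 in BXPC3. AGO3 was dim on all 5 arrays, with bead intensities of 123 to 153 beside a fitted background mean of 92.4 to 99.5, and over 8 processing settings its 3UTR difference ranged between 0.41 and 1.09.

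AGO1, which like the other argonautes carries microRNA strands, had its highest level on a control array. Its levels were 7.04 and 6.93 on the BXPC3 ORF and control arrays. In Miapaca they were 7.12 on the ORF array and 7.28 on the 3UTR array, against 7.57 on the control array. The Miapaca control array was the highest of the 5. The Miapaca differences were −0.44 for the ORF siRNA and −0.29 for the 3UTR siRNA, beside 0.11 in BXPC3.

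AGO4 was detected on the BXPC3 ORF array alone, with a level of 5.31 and a bead intensity of 120. It was not detected on the BXPC3 control array, where the bead intensity was 90.8, nor on any Miapaca array. Set against the lowest detected signal of the control array, it was at least 1.86-fold higher with the ORF siRNA in BXPC3, or 0.90 on the log2 scale. That bound ranged between 0.27 and 0.90 over 8 processing settings and was lowest with the authors' series matrix values. In Miapaca no value can be given for it.

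TNRC6A, the GW182 protein that recruits the deadenylases (chr16:24610205-24826218), had levels of 6.48 on the BXPC3 ORF array and 7.04 on the BXPC3 control array. In Miapaca it had 6.88 on the ORF array and 7.56 on the 3UTR array, against 7.60 on the control array. In each line the ORF array was below its control, while the 3UTR array lay close to the Miapaca control array. The differences with the ORF siRNA were −0.73 in Miapaca and −0.56 in BXPC3, and the 3UTR siRNA gave −0.04. Of its other probes, 1 was detected on 1 array and 1 on none.

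**Figure D2:**
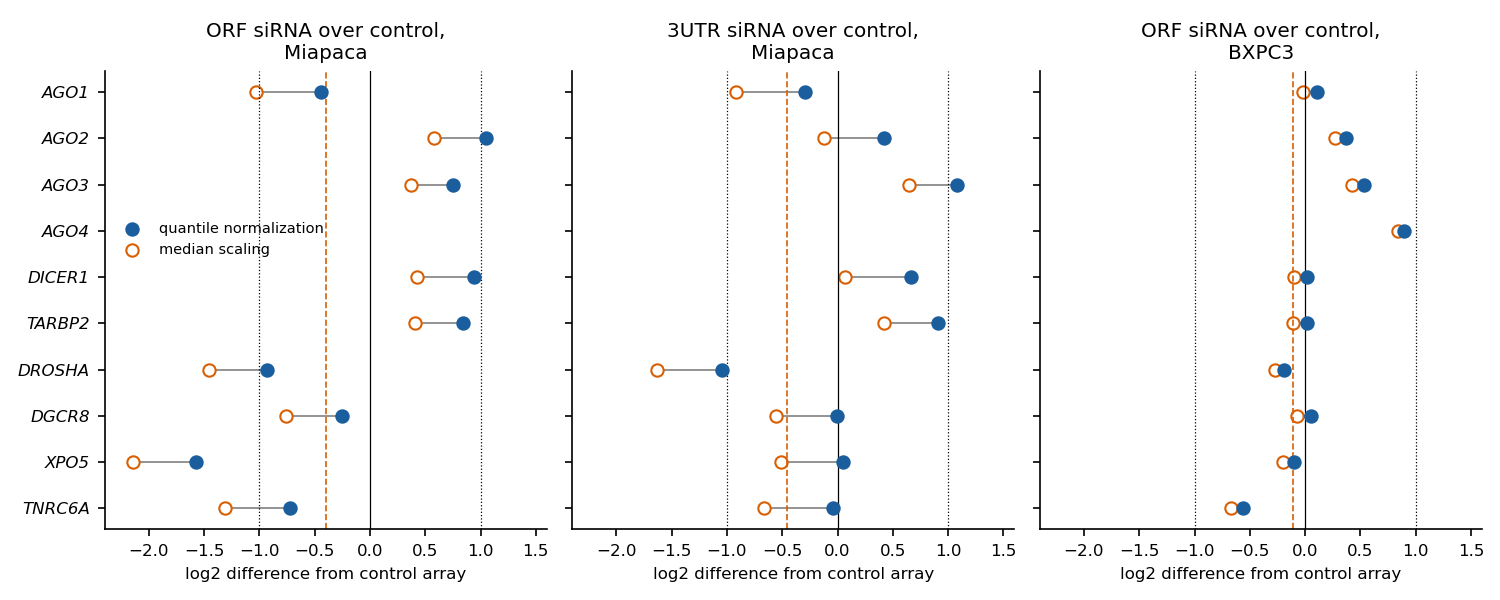
Log2 difference of each LYNX1 siRNA array from the control array of its line (horizontal axis), for 10 genes (vertical axis), after quantile normalization (filled) and median scaling (open). Dotted lines mark 2-fold and the dashed line is the median of all genes under median scaling, at −0.40, −0.46 and −0.11. XPO5 at −1.57 was the lowest value with the ORF siRNA in Miapaca, the AGO4 value in BXPC3 is a lower bound, and AGO4 has no value in Miapaca.

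Counted at 2-fold, 2 of 9 measured genes passed with the ORF siRNA in Miapaca, AGO2 higher and XPO5 lower, where 10.6% of 10899 genes passed, 5.07% higher and 5.51% lower. With the 3UTR siRNA in Miapaca 2 of 9 passed, AGO3 higher and DROSHA lower, where 8.86% of 10865 genes did, 4.22% higher and 4.64% lower. With the ORF siRNA in BXPC3 0 of 10 passed, where 1.09% of 11252 genes did. These shares of 9 or 10 genes were not tested against the shares of all genes. The median difference over the measured RNA interference genes was −0.25, 0.05 and 0.04 in the same order, beside 0.02, 0.00 and −0.01 over all genes. DICER1 at 0.94 and DROSHA at −0.93 lay just short of 2-fold with the ORF siRNA in Miapaca.

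Read by step of the pathway, DROSHA, DGCR8 and XPO5, which act before the cytoplasm, all stood below control with the ORF siRNA in Miapaca, at −0.93, −0.25 and −1.57. DICER1 and TARBP2, which act in the cytoplasm, stood above it at 0.94 and 0.85 by their brighter probes. The measured genes of the later steps were split. AGO2 and AGO3 stood above control at 1.05 and 0.75, and AGO1 and TNRC6A below it at −0.44 and −0.73. Each of the 9 measured genes kept its sign there in 8 of 8 settings. This is a description of 2 arrays, and the other detected probes of DICER1 and TARBP2 gave −0.30 and 0.03. With the 3UTR siRNA in Miapaca the nuclear and export genes stood at −1.04, −0.00 and 0.05, so DROSHA alone was low. In BXPC3 DROSHA, DGCR8, XPO5, DICER1 and TARBP2 lay between −0.19 and 0.05 by the probe that stood for each gene. The other detected probes of DICER1 and TARBP2 gave 0.29 and −0.48 there.

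The Miapaca values have to be read beside the brighter Miapaca control array. Scaling the arrays to a common median, over probes of which most were not detected, leaves that difference in brightness in place, and it moved the median of all genes in Miapaca to −0.40 for the ORF siRNA and −0.46 for the 3UTR siRNA, and in BXPC3 to −0.11. Genes at 2-fold then numbered 188 higher and 1822 lower with the ORF siRNA in Miapaca, beside 553 and 600 after quantile normalization. With the 3UTR siRNA they numbered 85 and 1980, beside 459 and 504, and in BXPC3 44 and 90, beside 71 and 52. Relative to the shifted median, XPO5 stood at −1.74 and AGO2 at 0.98 with the ORF siRNA in Miapaca. For the ORF and 3UTR siRNA in turn, DROSHA stood at −1.06 and −1.18 and AGO3 at 0.77 and 1.11. Without that correction, the 3UTR differences of AGO2 and XPO5 in Miapaca and the BXPC3 differences of AGO1, DICER1, DGCR8 and TARBP2 changed sign. With it, XPO5 at −0.05 and TARBP2 at −0.0004 still lay below 0, and the others did not. The part of array brightness in these results was not tested beyond this.

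**Figure D3:**
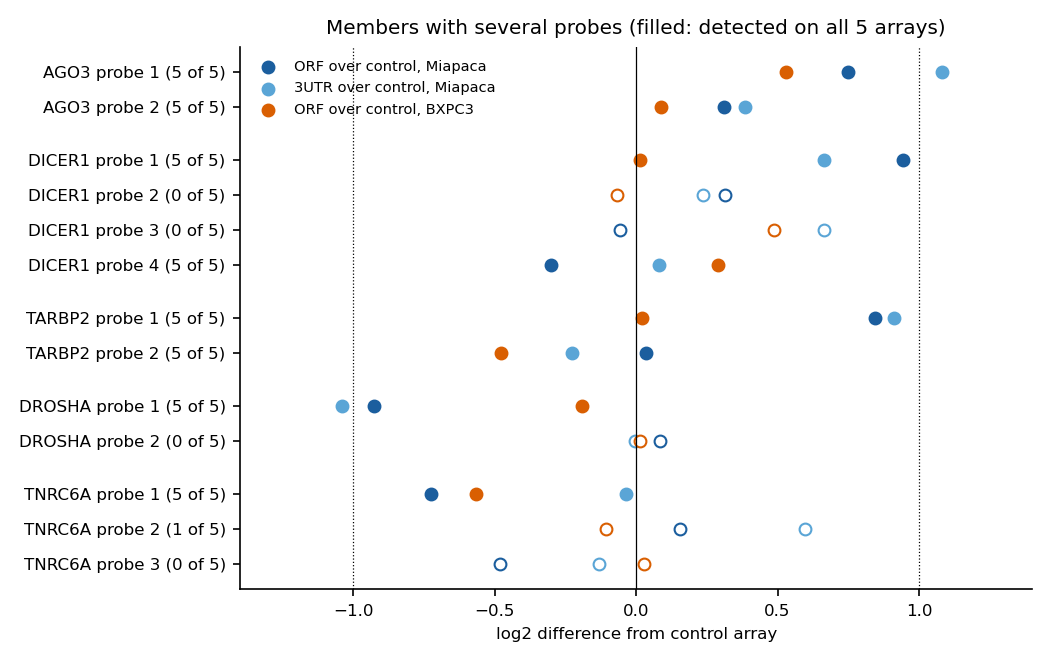
Log2 difference from the control array (horizontal axis) for every probe of the 5 genes with several probes (vertical axis, with the number of arrays that detected the probe), filled where all 5 arrays detected it. Dark blue is the ORF siRNA in Miapaca, light blue the 3UTR siRNA in Miapaca and orange the ORF siRNA in BXPC3. The DICER1 probes detected throughout gave 0.94 and −0.30 with the ORF siRNA in Miapaca, and the TARBP2 probes 0.85 and 0.03. Both AGO3 probes were above 0 in all 3 comparisons after quantile normalization, which the values shown here use.

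The siRNA term was tested with the 3 LYNX1 siRNA arrays against the 2 control arrays and cell line in the model, which treats the ORF and 3UTR siRNAs as a single treatment. In this limma fit 0 of 9 RNA interference genes, and 0% of 11241 genes, had a Benjamini-Hochberg adjusted p under 0.05. At an unadjusted p under 0.05 there were 1 of 9 and 497 of 11241, or 4.42%. The 1 gene was AGO3, with a limma estimate of 0.75 (95% interval 0.14 to 1.36, adjusted p = 0.883). DROSHA followed at −0.64 (95% interval −1.30 to 0.02, adjusted p = 0.883 by limma). For these genes the LYNX1 siRNA arrays and the control arrays did not overlap, which held for 10.7% of all genes. The limma estimates of the others lay between −0.48 for XPO5 and 0.58 for AGO2, with intervals that include 0. The interval for XPO5, −1.65 to 0.69, was the widest, since the siRNA arrays differed among themselves. With 2 residual degrees of freedom, intervals of this width include a change of 2-fold or more for 7 of these 9 genes.

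With the Miapaca 3UTR array left out, the ORF siRNA alone could be set against control siRNA over both lines, again with line as a term. In this limma fit of 4 arrays 0 of 9 RNA interference genes had an adjusted p under 0.05, and 1 of 11241 genes, or 0.0089%, did, which was the histone gene H2BC5, named here after its value was seen. The residual spread in this fit came only from how far the lines disagreed over the siRNA difference. At an unadjusted p under 0.05 there were 4 of 9, where 1080 of 11241 genes, or 9.61%, passed. This share of 9 genes was not tested against the share of all genes. The 4 were XPO5 at −0.84 (95% interval −1.55 to −0.13, adjusted p = 0.414 by limma), TNRC6A at −0.65 (95% interval −1.24 to −0.05), AGO2 at 0.71 (95% interval 0.09 to 1.33) and AGO3 at 0.64 (95% interval 0.04 to 1.24), the last 3 with a limma adjusted p between 0.444 and 0.484. The XPO5 estimate averages −1.57 in Miapaca and −0.10 in BXPC3. The unadjusted counts depended on the arrays used: with the other arrays but without the Miapaca control array they were 0 of 9 and 41 of 11241.

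By cell line, AGO2 and TARBP2 were higher in BXPC3 than in Miapaca. In the same limma fit, 31.5% of all genes differed between lines at an adjusted p under 0.05, 16.1% being higher in BXPC3. Of the RNA interference genes 2 of 9 did, both higher in BXPC3. The AGO2 estimate was 1.18 (SE 0.29, 95% interval 0.49 to 1.87, adjusted p = 0.0227 by limma), or 2.26-fold. The TARBP2 estimate was 0.99 (95% interval 0.32 to 1.67, adjusted p = 0.0380 by limma), or 1.99-fold. By the probe that stood for each gene, both BXPC3 arrays were above all 3 Miapaca arrays for AGO2, TARBP2, DICER1 and DGCR8, and below them for AGO1. These 5 of 9 compare with 60.3% of all genes whose arrays did not overlap between the lines. The other DICER1 probe detected on all 5 arrays did overlap. It read 7.14 and 6.85 on the BXPC3 ORF and control arrays, and 6.56, 6.94 and 6.86 on the Miapaca ORF, 3UTR and control arrays. Limma estimates that did not pass were 0.59 for DICER1 (adjusted p = 0.156), 0.45 for DGCR8 (adjusted p = 0.195) and −0.66 for TNRC6A (adjusted p = 0.128). They were −0.36 for AGO1, −0.31 for AGO3, 0.31 for DROSHA and 0.21 for XPO5.

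The line difference rested on few arrays, for these genes and for all genes. Without either control array 919 of 11241 genes, or 8.18%, differed between lines at an adjusted p under 0.05 in limma, and without the BXPC3 ORF array 599, or 5.33%, against 3544 with all 5 arrays. Without the Miapaca control array the limma estimates were 1.02 for AGO2 (adjusted p = 0.216) and 0.62 for TARBP2 (adjusted p = 0.312), and leaving out the BXPC3 control array gave the same values. Without the BXPC3 ORF array they were 1.39 for AGO2 (adjusted p = 0.194) and 1.48 for TARBP2 (adjusted p = 0.120). Without the Miapaca ORF array TNRC6A passed as well in the limma fit, at −0.82 (adjusted p = 0.0270), lower in BXPC3. Compared array by array, AGO2 was 2.62-fold higher in BXPC3 than in Miapaca with control siRNA and 1.63-fold higher with ORF siRNA. For TARBP2 these folds were 2.79 and 1.58, and the lower TARBP2 probe gave log2 differences of 0.76 and 0.24. Of 11825 genes compared under control siRNA, 29.1% passed 2-fold, and of 11607 under ORF siRNA 29.8% did. XPO5 was 2.47-fold higher in BXPC3 with ORF siRNA, where the Miapaca level was low, and differed by −0.17 on the log2 scale with control siRNA.

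**Figure D4:**
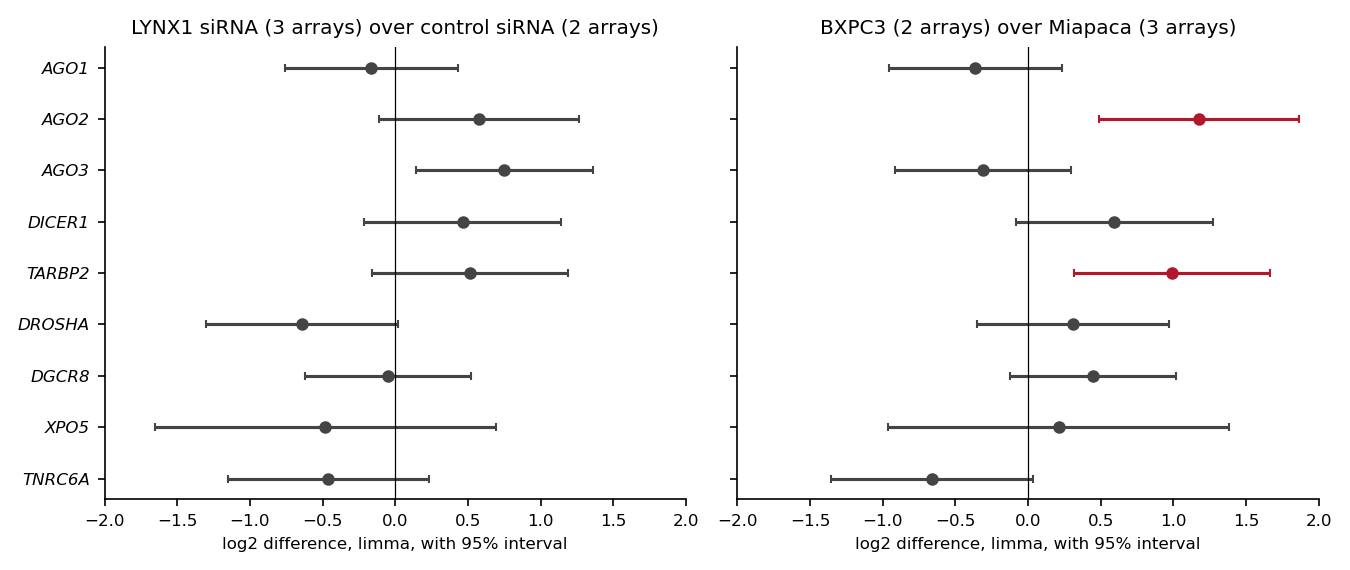
Limma estimates with 95% intervals (horizontal axis, log2 difference) for the 9 RNA interference genes in the 5-array fit, for LYNX1 siRNA over control siRNA (left) and BXPC3 over Miapaca (right). Red marks an adjusted p under 0.05, reached by AGO2 and TARBP2 between the lines and by 0 of 9 genes for siRNA.

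The genes whose levels ran most like AGO2 over the 5 arrays, by the smallest root mean square difference after centring each gene on its own mean, were F8A1, LRCH4 and TMEM134. Their differences from AGO2 were 0.0645, 0.0844 and 0.103 on the log2 scale, among 8256 genes detected on all 5 arrays. For DICER1 they were EFR3A at 0.0319, SP100 at 0.0537 and PRKDC at 0.0541. These are likenesses over 5 arrays of 2 cell lines and carry no test. EFR3A, which anchors a lipid kinase at the plasma membrane, had 9.94 and 9.86 on the BXPC3 ORF and control arrays. In Miapaca it had 9.82 and 9.46 with the ORF and 3UTR siRNA, against 8.81 with control siRNA, the same shape as the brighter DICER1 probe.

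Around the core genes, 7 lists held 128 genes that act in or beside the pathway. Of those measured in Miapaca, 8 of 95, or 8.42%, passed 2-fold with the ORF siRNA and 8 of 98, or 8.16%, with the 3UTR siRNA, and 0 of the genes in the lists had an adjusted p under 0.05 for the siRNA term in the limma fit. Each count below is read against the 10.6%, 8.86% and 1.09% of all genes given above, and each median against 0.02, 0.00 and −0.01 over all genes. In BXPC3 0 genes of the 7 lists reached 2-fold with the ORF siRNA. The rest concerns Miapaca, where both siRNAs are set against the single control array.

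GW182 paralogs and other argonaute partners had 16 measured members, with a median difference of 0.02 for the ORF siRNA and −0.09 for the 3UTR siRNA. TNRC6B, the paralog of TNRC6A, had 8.15 on the Miapaca ORF array and 7.07 on the 3UTR array, against 6.88 on the control array. It was thus 2.40-fold higher with the ORF siRNA, where TNRC6A stood at −0.73. The 3UTR siRNA gave 0.18 for TNRC6B. Its other 2 probes were detected on 0 of 5 arrays. PRKRA, the other double-stranded RNA binding partner of DICER1, was 2.15-fold lower with the 3UTR siRNA and stood at −0.82 with the ORF siRNA and −0.35 in BXPC3. AJUBA, a LIM domain protein of processing bodies, was not detected on the Miapaca ORF array and was at least 2.05-fold lower there. The other AJUBA probes, detected on 1 and 2 arrays, gave 0.02 and 0.05 with the ORF siRNA in Miapaca.

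The chaperones that open argonaute for loading had 9 measured members, with medians of −0.31 for the ORF siRNA and 0.05 for the 3UTR siRNA. PTGES3, a co-chaperone of HSP90, had 9.31 on the Miapaca ORF array and 10.01 on the 3UTR array, against 11.35 on the control array. These are 4.12-fold and 2.54-fold lower, and in BXPC3 the difference was −0.40. The control array was the highest of the 5, as it was for AGO1 and DROSHA.

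Partners in nuclear processing and export had 17 measured members and medians of −0.25 and −0.12. NUP153, a protein of the nuclear pore, was 2.55-fold lower and 2.50-fold lower for the ORF and 3UTR siRNA, and stood at −0.34 in BXPC3. KHSRP, which binds the loops of some microRNA precursors, was 2.16-fold higher for the ORF siRNA and stood at 0.43 for the 3UTR siRNA, which median scaling turned to −0.10. SRSF3, a splicing factor that also binds primary microRNA transcripts, was 2.22-fold lower with the 3UTR siRNA, while its other probe gave −0.49.

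The deadenylation and decapping list, which carries out silencing after TNRC6A, had 27 measured members and medians of −0.15 and 0.00. CNOT3, a subunit of the CCR4-NOT deadenylase, was 2.23-fold lower for the ORF siRNA and stood at −0.83 for the 3UTR siRNA. LSM14A, a processing body protein, was 2.08-fold lower for the ORF siRNA and stood at 0.55 for the 3UTR siRNA. CNOT4, a ubiquitin ligase bound to the same complex, was 2.40-fold lower with the 3UTR siRNA, while another probe detected on all 5 arrays gave −0.65. The members of this list lay between −1.16 and 0.93 for the ORF siRNA and between −1.26 and 0.83 for the 3UTR siRNA.

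Small RNA tailing, trimming and turnover had 11 measured members, 0 past 2-fold, and medians of 0.12 and 0.18. The PIWI pathway, which belongs to the germline, had 2 measured members of 10 in Miapaca, with medians of −0.30 and −0.82. Of these PLD6, a mitochondrial protein of piRNA production, was 2.10-fold lower with the 3UTR siRNA, and its other probe gave −0.48. Transcripts that host microRNAs had 13 and 16 measured members and medians of −0.14 and −0.15. SMC4, a condensin subunit, was 2.10-fold and 2.85-fold lower for the ORF and 3UTR siRNA by its brightest probe, and another detected throughout gave 0.04 and −0.73. COPZ1, a coat protein subunit, was 6.84-fold lower with the 3UTR siRNA and stood at 0.39 with the ORF siRNA. The medians of all 7 lists in BXPC3 lay between −0.18 and 0.02.

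**Figure D5:**
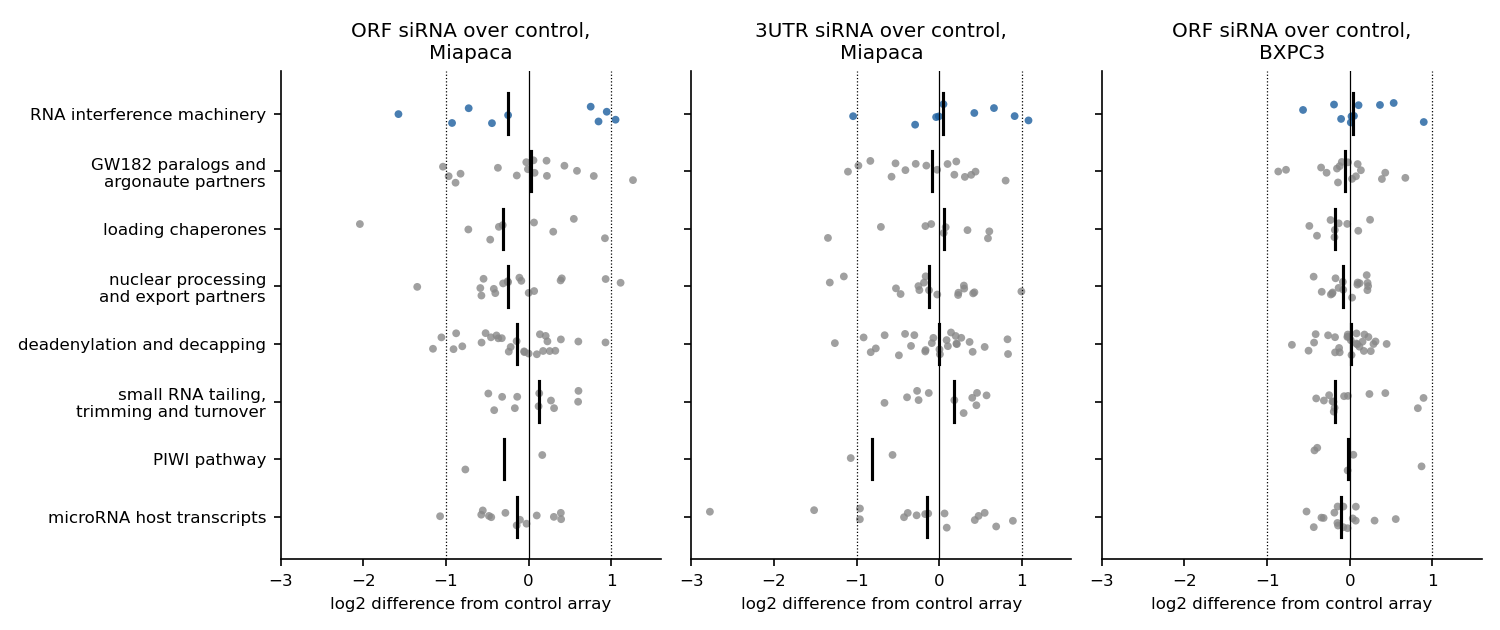
Log2 difference from the control array (horizontal axis) for each measured gene (point) of the RNA interference machinery and 7 related lists (vertical axis), with the list's median as a bar. Dotted lines mark 2-fold. COPZ1 at −2.77 with the 3UTR siRNA and PTGES3 at −2.04 with the ORF siRNA were the lowest points in Miapaca, and in BXPC3 no point reached 2-fold.

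The products of the pathway could be seen only indirectly. The labelling, a modified Eberwine procedure per the labels, primes on poly(A) tails, so a probe for a microRNA gene reads polyadenylated primary transcript or an overlapping host and not the mature microRNA. Of 561 microRNA genes with a probe, 73 were detected on at least 1 array and 11 on all 5. Between the lines, 4 were detected on both BXPC3 arrays and no Miapaca array, and 1 the other way round. These counts rest on the detection limit and were not set against the share of all genes with the same pattern. MIR185, among the 4, read 4.94 and 4.74 on the BXPC3 ORF and control arrays. On the Miapaca ORF, 3UTR and control arrays it read 4.44, 4.97 and 4.85, so its levels overlapped between the lines. The loci given here were chosen after their values were seen, and they carry no test. The mature sequences below, from RefSeq on GRCh38.p14, are the 5p forms, from 1 side of the hairpin, annotated at MIR205, MIR125B2 and MIR130A. The 3p forms listed for MIR205 and MIR125B2 have other seeds and are not shown. For MIR130A only the 5p form was at hand, and which form acts in these cells was not measured. The seed (bases 2 to 8, by which targets are mainly recognised) is in capitals. The sequences shown lie on the plus strand at chr1:209432166-209432187 for miR-205-5p, chr21:16590253-16590274 for miR-125b-5p and chr11:57641212-57641233 for miR-130a-5p, and share no seed.
hsa-miR-205-5p: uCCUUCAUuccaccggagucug
hsa-miR-125b-5p: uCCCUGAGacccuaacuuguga
hsa-miR-130a-5p: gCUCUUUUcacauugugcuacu

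MIR205, a microRNA gene of epithelial cells, had levels of 6.06 and 6.95 on the BXPC3 ORF and control arrays. On the Miapaca ORF, 3UTR and control arrays it read 4.32, 4.26 and 4.35, not detected. It was thus detected on the same arrays as EPCAM, CDH1 and KRT7, and as the mesenchymal marker CDH2. The epithelial markers KRT8, KRT18, KRT19 and MUC1 were detected in both lines. MIR125B2 ran the other way from MIR205, with 5.14 and 4.73 on the BXPC3 ORF and control arrays. It had 6.77, 7.15 and 6.96 on the Miapaca ORF, 3UTR and control arrays. For both loci the arrays of the lines did not overlap, as was so for 60.3% of all genes.

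MIR130A had 5.64 and 5.99 on the BXPC3 ORF and control arrays. In Miapaca it had 5.79 on the ORF array and 5.71 on the 3UTR array, against 6.78 on the control array, and the 3UTR difference was −1.08. The Miapaca control array was the high one among the 5, as for DROSHA, PTGES3 and NUP153. MIR302C had 6.26 and 6.83 on the BXPC3 ORF and control arrays. It had 4.86 on the Miapaca ORF array and 6.24 on the 3UTR array, against 5.07 on the control array. The 3UTR array was the high one of the 3 in Miapaca.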

How the data were processed

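RNA of 5 transfected cultures was measured on Illumina BeadChips, 1 array per group. The authors deposited a table of bead intensities, which per the file headers are unnormalized means, beside a detection p-value per probe and array. A series matrix deposited by the authors holds normalized intensities on a linear scale (column medians 100.0 to 102). For scanner software, background subtraction and the authors' normalization, the steps were not given in the sources used here. Deposited intensities were background-corrected by normexp from the detection p-values with an offset of 16, quantile-normalized over 5 arrays and put on the log2 scale with limma 3.58.1 under R 4.3.3. Tables were made with pandas 2.3.3 and numpy 2.4.6 and figures with matplotlib 3.10.9 under Python 3.11.15. Of 48107 probes, 1 was left out for a missing value.

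Platform symbols were present for 30113 probes (1 symbol), 8 had several and 17986 had none. They were updated through RefSeq accessions (29081 probes) or Entrez identifiers (1011), 21 were kept, and all 18 probes of the 10 genes matched. The probe with the highest mean stood for a gene. A gene entered a 2-array comparison if detected (p under 0.01) on at least 1 array, with a bound where only 1 array detected it, set against the lowest detected signal of the other array. Comparisons of 2 arrays have no test. The limma fit used line and siRNA as terms, genes detected on at least 2 arrays and Benjamini-Hochberg adjustment over 11241 genes. The number of arrays limits the precision, and the labels do not say that the cultures were made on separate occasions.

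The 10 genes and the 7 lists were chosen with earlier results of these data known. Named were all 10 genes with every probe, up to 4 genes of each list past 2-fold per comparison, and the 3 genes most like AGO2 and DICER1. Alternatives changed the scaling, value source, background correction, offset, detection limit, probe rule, filter, array weights, fold limit and arrays used.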

Additional observations from a re-analysis of the deposited data

Results flagged for a closer look

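With the ORF siRNA, AGO1 stood at −0.44 on the log2 scale in Miapaca and at 0.11 in BXPC3, so the lines went opposite ways. DGCR8 likewise stood at −0.25 in Miapaca and at 0.051 in BXPC3. Each line had 1 siRNA array and 1 control array, so neither difference between the lines was tested, and median scaling put both BXPC3 values just below 0, at −0.02 for AGO1 and −0.07 for DGCR8.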

How the results depend on the processing

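The count of RNA interference genes at 2-fold with the ORF siRNA in Miapaca, 2 as reported, was 4 under median scaling, 1 with the authors' series matrix values, 1 without background correction and 7 at a limit of 1.5-fold, where 18.4%, 2.95%, 3.14% and 33.0% of all genes passed. With the 3UTR siRNA in Miapaca, 2 as reported, it was 1 under median scaling, 0 with the series matrix values, 0 without background correction, 0 with an offset of 50, 1 with the mean over detected probes and 4 at 1.5-fold, where 19.0%, 1.96%, 2.14%, 3.99%, 7.40% and 30.7% of all genes passed. In BXPC3, 0 as reported, it was 1 at 1.5-fold, where 10.0% passed. An offset of 50 and the deposited matrix shrink differences of dim probes such as AGO3 (0.41 to 1.09 with the 3UTR siRNA over 8 settings). The median over the measured genes with the 3UTR siRNA was 0.05 as reported and −0.51 under median scaling, and with the ORF siRNA in Miapaca −0.25 as reported, −0.76 under median scaling and 0.08 at a detection p under 0.05, where AGO4 entered.

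The count of genes that differed between lines, 2 as reported, was 1 under median scaling (AGO2 0.87, limma adjusted p = 0.0659), 1 with the mean over detected probes (TARBP2 0.76, limma adjusted p = 0.0573) and 1 with no detection filter (TARBP2, limma adjusted p = 0.0667). Leaving out 1 array at a time gave 0 to 3, where between 5.33% and 40.9% of all genes were called. For the siRNA term the count was 0 under all 13 alternatives in limma, while the genes called among all tested were 3 without the Miapaca ORF array (H2BC5, TK1 and CABLES2, named after their values were seen) and 1 without the Miapaca 3UTR array (H2BC5). Each siRNA array was paired with the control array of its line only through line as a term in the fit, since groups of 1 array hold no replicate numbers. Dim genes near the background, AGO3 and AGO4 among them, are limited by signal over background.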
